A study of Mus musculus with 25 samples.

Results

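The 32 genes described here are p53 itself (Trp53), its main regulators and a set of direct p53 target genes, listed by symbol. All 32 were found among the 13641 genes of the count table, and all 32 were among the 13630 genes tested. They were read in hematopoietic stem cells sorted from mouse bone marrow as Lin−Sca1+cKit+CD48−CD150+ cells and sequenced in bulk as polyA RNA. The cells came from mice engrafted with marrow of donors labelled SclCre;GFP (WT), SclCre;V617F;GFP (VF), SclCre;V617F;IL-1b-/-GFP (Il1bKO) or SclCre;V617F;IL-1R1-/-GFP (Il1r1KO). All 4 labels therefore carry SclCre, a Cre recombinase driven by elements of the blood stem cell gene Scl, and GFP, and the last 3 also carry the human JAK2 V617F mutation, an activating change of a cytokine receptor kinase found in myeloproliferative neoplasms. Tamoxifen was started 16 weeks after engraftment in each group, and marrow was taken 2 weeks later (4 libraries of each genotype) or 4 weeks later (3 libraries each of VF, Il1bKO and Il1r1KO). No WT library of 4 weeks is among the 25. The deleted alleles belong to the engrafted cells. The genotype, strain and age of the host mice, and whether 1 library is 1 mouse, are not given in the sources used here. P-values therefore measure the spread between libraries. A library such as VF_4w 6 bears its genotype, its week and the number in its title.

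p53 is a transcription factor that is held at low protein levels by Mdm2 and Mdm4 and becomes stable after DNA damage or other stress. It then raises genes that stop the cell cycle, start cell death, repair DNA or adjust metabolism, and it also raises its own inhibitors Mdm2 and Ppm1d, which closes a feedback loop. Much of this control acts on the p53 protein, so the mRNA of Trp53 is not a measure of p53 activity. In blood stem cells p53 is known for limiting entry into the cell cycle and for removing damaged cells. IL-1β, the product of Il1b, signals through the receptor encoded by Il1r1.

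Totals were 21990959 to 40178173 counts per library, and 11871 to 13491 of the genes had at least 1 read. Il1bKO_4w 5 stood apart with the highest total and the fewest genes detected, against 13039 in the next lowest, and it held 7 of the 32 genes at 0 reads. The differences of Cdkn1a, Bbc3 and Ddb2 between Il1bKO and VF are also given without it. The defining genes of the sort were present: Kit was at 461 CPM (counts scaled by library size) or more and Slamf1, which encodes CD150, at 58.4 CPM or more in each library, while Cd48 was at 17.1 CPM or less. The lineage genes Cd3e, Cd4, Cd8a, Cd79a, Ms4a1 and Ly6g were not in the table used here. The human JAK2 construct set the 21 mutant libraries apart from the libraries labelled WT, while CreERT2, the tamoxifen-inducible form of Cre, had 0 or 1 read in the latter. Construct levels also differed among the mutants. The GFP construct pEGFP ran from 465 to 514 CPM in VF and from 874 to 1357 in Il1r1KO. The later exons of the JAK2 construct ran from 39.7 to 57.8 CPM in VF and from 81.4 to 115 in Il1r1KO. Whether these levels bear on the p53 genes was not tested. In bulk RNA, a change in the share of cells that express a gene and a change in RNA per cell cannot be told apart.

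The DNA that p53 binds in its targets is known, and the start regions of the members were read for it as background to the genes named below. A p53 site is a pair of half-sites of 10 bases, each with 3 purines, then C, A or T, A or T again, and G, and then 3 pyrimidines. The half-site reads as the same pattern on both strands. RefSeq windows from 250 bases before to 50 after the gene start (GRCm38.p6) were matched by symbol for 24 of the 32 members. In these windows 11 of 24 members (45.8%) had at least 1 half-site without a mismatch, against 9.55% of 27025 genes. A pair of half-sites at most 13 bases apart with at most 3 mismatches in total stood in 8 of 24 (33.3%) against 7.63% of genes, and with at most 2 mismatches in Cdkn1a, Bax and Sesn1 (12.5% against 2.47%). The members were listed as p53 regulators and direct targets, so a higher share follows from the list and is not a result of these data. A gene with several starts had several windows, for which the shares were not adjusted. The best pair of 6 members that the results name is given here from 5′ to 3′ on the strand of the gene, with the half-sites in capitals.
Cdkn1a: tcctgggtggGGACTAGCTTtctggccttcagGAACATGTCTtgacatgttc
Bax: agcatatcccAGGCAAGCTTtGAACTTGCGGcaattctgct
Sesn1: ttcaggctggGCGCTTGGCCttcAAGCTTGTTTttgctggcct
Mdm4: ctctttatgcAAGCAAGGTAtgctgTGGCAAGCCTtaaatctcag
Trp53: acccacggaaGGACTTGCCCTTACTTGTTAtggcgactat
Bbc3: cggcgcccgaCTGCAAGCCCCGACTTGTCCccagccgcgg
The Cdkn1a site lies at chr17:29090896-29090947 (+ strand), upstream of the gene in GENCODE vM21, and was without mismatch. It was 1 of 20 such genes among 27025 (0.074%). The lower-case letters after its second half-site form another half-site, so that an abutting pair with 1 mismatch overlaps the pair shown. The Bax site (chr7:45467069-45467109, - strand, upstream of the gene) and the Sesn1 site (chr10:41887243-41887285, + strand, in an intron) had 2 mismatches each. The Trp53 site (chr11:69580274-69580313, + strand, upstream), the Mdm4 site (chr1:133025616-133025660, - strand, intron) and the Bbc3 site (chr7:16309476-16309515, + strand, intron) had 3 each. These are matches of letters and not measured binding, and known p53 sites outside these windows, such as those inside introns, were not searched.

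Levels across the 32 genes spread widely, and several well-known targets were close to the bottom. Per kilobase of exon, the median over the 25 libraries was 69.4 CPM for Trp53, above 94.3% of the genes tested. Bax, the pore-forming death protein of mitochondria, followed at 66.5 CPM per kilobase, then Sesn1, a stress-induced inhibitor of the growth kinase mTORC1, at 56.6, and Ccng1, a cyclin that recruits a phosphatase to Mdm2, at 45.5. The ubiquitin ligase Mdm2 stood at 21.1 CPM per kilobase. The order of Trp53 and Bax is not firm, since their ranges over libraries overlap (50.9 to 92.8 and 52.3 to 90.2 CPM per kilobase). Cdkn1a, which encodes the p21 inhibitor of cyclin-dependent kinases, was at 1.62 CPM per kilobase, above 21.2% of genes, and Phlda3, a repressor of the survival kinase Akt, at 2.47. The death receptor genes Tnfrsf10b (0.689) and Eda2r (0.576) were lower still. Pmaip1, which encodes the death protein Noxa, had no read in 12 of 25 libraries. Spread over the libraries followed a different order. Its coefficient of variation was 8.33% for Ei24 and 10.5% for Mdm2, but 83.5% for Plk2, 83.2% for Cdkn1a and 82.5% for Phlda3.

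**Figure D1:**
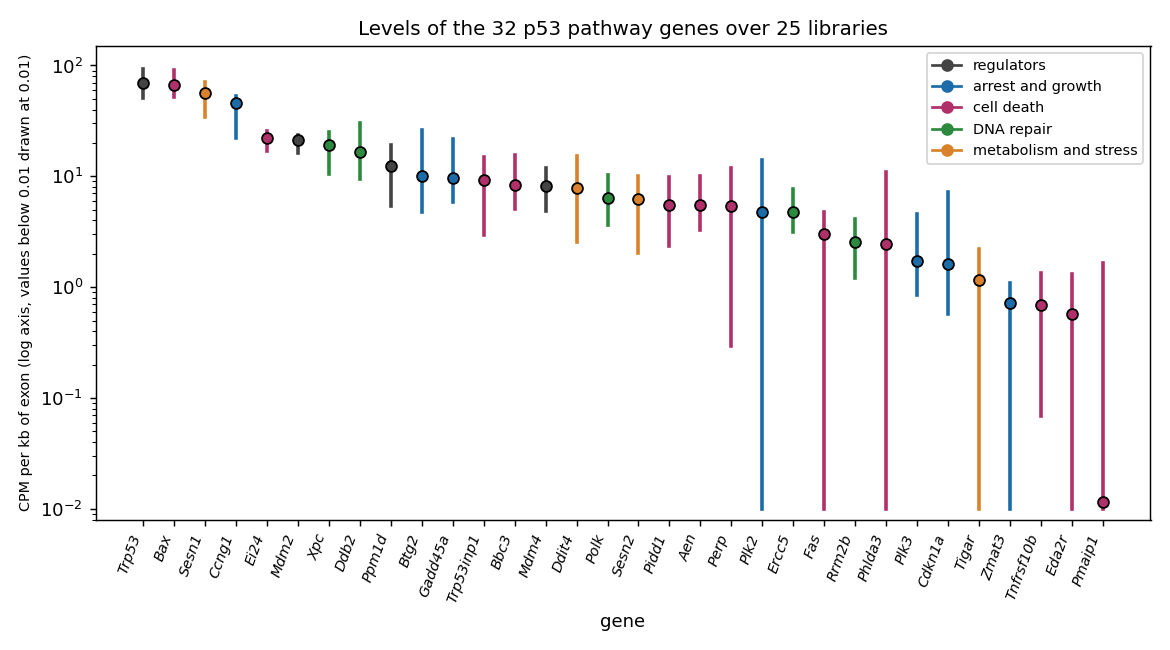
Level of each of the 32 genes in CPM per kilobase of exon (log axis, with values at or near 0 drawn at a fixed low value). The point of each gene is the median over the libraries, and its line runs from the lowest to the highest library. Colours mark the role of the gene, and genes are ordered by their median. Trp53 and Bax sit highest, Cdkn1a and Phlda3 lie near the low end with long lines, and Pmaip1 has the lowest median.

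The first comparison sets VF against WT at 2 weeks. CreERT2 was at 247 to 324 CPM in these VF libraries and at 0.0366 CPM or less in WT. The JAK2 mutant and CreERT2 therefore cannot be told apart in comparisons with WT. None of the 32 passed the test. Of the 32, 12 were higher and 20 lower in VF than in WT (49.5% of all genes were lower), with a median log2 fold change of -0.14 against 0.00 over all genes tested. edgeR called 0 of 32 (background 0.00734% of genes), as did DESeq2 and limma voom, and 0 of 32 had an unadjusted p under 0.05, against 2.27% of genes. Adjusted p was 0.9998 or more for each member.

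Among the regulators, Trp53 read 211, 285, 259.5 and 269 CPM in WT and 299, 260.04, 240.4 and 259 CPM in VF. The groups overlap, and the means of 256 ± 31.8 and 265 ± 24.5 CPM (SD, n = 4 each) differ by less than either SD. Mdm2 read 121, 90.1, 107 and 108 CPM in WT and 112, 98.6, 97.4 and 119 in VF (log2 fold change 0.0037, SE 0.10). Mdm4, the partner of Mdm2 that blocks p53 without degrading it, had the lowest p of the 32 at 143, 176, 129.9 and 147 CPM in WT and 124, 117, 129 and 137 in VF (log2 fold change -0.24, SE 0.13, adjusted p = 0.9998). Its highest VF library lies above its lowest WT library.

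Among the arrest genes, Ccng1 was the 1 member whose groups did not overlap, against 1.8% of all genes that were lower without overlap. It read 185, 172, 182 and 159 CPM in WT and 143, 152, 142 and 148 in VF (log2 fold change -0.26, SE 0.14, adjusted p = 0.9998). Cdkn1a was low and uneven in both groups, with 7.49, 6.82, 2.81 and 2.31 CPM in WT and 3.7, 8.17, 3.42 and 2.53 in VF (log2 fold change -0.12, SE 0.64). Plk3, a stress-responsive kinase, gave 4.91, 3.67, 4.63 and 7.03 CPM in WT and 5.12, 2.84, 3.89 and 2.4 in VF (log2 fold change -0.51, SE 0.43). Neither separates the genotypes.

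The death genes were as close. Bax read 91.2, 101, 82.4 and 97.5 CPM in WT and 90.4, 101, 90.8 and 92.2 in VF (log2 fold change 0.00897, SE 0.11). Bbc3, which encodes the Bcl2 antagonist Puma, read 23.2, 19.5, 15.2 and 10.7 CPM in WT and 17.7, 19.96, 17.3 and 21.8 in VF (log2 fold change 0.17, SE 0.24). Phlda3 was low and uneven in both groups, at 2.76, 6.16, 5.36 and 1.61 CPM in WT and 1.27, 4.65, 0.622 and 2.31 in VF (log2 fold change -0.84, SE 0.84). Pmaip1 had 0.655, 0, 0 and 0.916 CPM in WT and 0, 0.499, 0 and 1.49 in VF, too few reads for a fold. Among the repair genes Ercc5, a nuclease of nucleotide excision repair, read 38.5, 29.4, 42 and 31.8 CPM in WT and 31.8, 31.5, 23.1 and 25 in VF, with overlap (log2 fold change -0.35, SE 0.19, adjusted p = 0.9998).

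Of the genotype comparisons, only loss of the IL-1 receptor in mutant cells gave edgeR calls among the 32. Trp53inp1, a nuclear protein that helps p53 towards death genes and is itself a p53 target, fell by 0.89 on the log2 scale. Several other targets had the opposite sign without an edgeR call, with log2 fold changes of 1.84 for Cdkn1a and 1.96 for Phlda3. Over both weeks, taken as the mean of the 2 within-week differences, edgeR called 1 of 32 (background 0.169%), DESeq2 called 2 (Cdkn1a and Trp53inp1) and limma voom with quality weights called 5 (also Bax, Phlda3 and Ppm1d). Over all genes DESeq2 called 148 and limma voom 321. An unadjusted p under 0.05 was reached by 8 of 32 (25%) against 11.4% of genes. They were Cdkn1a, Bax, Phlda3, Ppm1d and Pidd1 among the higher and Mdm2, Trp53inp1 and Gadd45a among the lower. In all, 15 members were higher and 17 lower (49.1% of genes were lower), with a median log2 fold change of -0.03 against 0.00 over all genes.

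Trp53inp1 (ENSMUSG00000028211, mm10 chr4:11156431-11174379) read 56.6, 63.5, 60.5 and 87.6 CPM in VF and 59.6, 52, 44.9 and 49.1 in Il1r1KO at 2 weeks. At 4 weeks it read 79, 47.2 and 51.6 CPM in VF and 19.1, 21 and 27.5 in Il1r1KO. The groups overlap at 2 weeks, while at 4 weeks the highest Il1r1KO library is below the lowest VF library. Means at 4 weeks were 59.3 ± 17.3 and 22.5 ± 4.41 CPM (SD, n = 3 each). It fell over both weeks (log2 fold change -0.89, SE 0.18, adjusted p = 0.0324) and within 4 weeks (log2 fold change -1.39, SE 0.27, adjusted p = 0.0358). The call over both weeks did not hold without each of 8 libraries, where adjusted p was 0.0597 without VF_2w 2, 0.0964 without VF_2w 4, 0.151 without VF_4w 5, 0.0614 without Il1r1KO_2w 2, 0.0947 without Il1r1KO_2w 3, 0.0772 without Il1r1KO_2w 4, 0.125 without Il1r1KO_4w 5 and 0.0984 without Il1r1KO_4w 6, although the log2 fold change was -0.76 or lower in every alternative. Over all alternatives adjusted p ran from 7.77e-04 to 0.151. The call within 4 weeks was likewise lost at 0.054 without VF_2w 2, 0.227 without VF_4w 5, 0.0524 without VF_4w 7, 0.0516 without Il1r1KO_2w 3, 0.05004 without Il1r1KO_2w 4, 0.139 without Il1r1KO_4w 5, 0.13 without Il1r1KO_4w 6 and 0.0665 without Il1r1KO_4w 7, and at 0.565 when the 2 groups were fitted alone, in a range of 3.40e-04 to 0.565.

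Among the other arrest and death genes, Cdkn1a (chr17:29090976-29100727), whose paired p53 site is printed above, read 14.7, 5.75, 11.3 and 25.6 CPM in Il1r1KO at 2 weeks, where VF read 3.7, 8.17, 3.42 and 2.53. At 4 weeks it read 19.5, 12.6 and 5.12 CPM in Il1r1KO and 2.31, 4.45 and 2.53 in VF. All 3 Il1r1KO libraries of 4 weeks are above all VF libraries of that week, while at 2 weeks VF_2w 2 lies above Il1r1KO_2w 2. The difference did not pass the test in edgeR (log2 fold change 1.84, SE 0.50, adjusted p = 0.163). Without Il1bKO_4w 5, a library of neither group that enters the shared estimate of spread, adjusted p was 0.0361 in a range of 0.0195 to 0.448 over the alternatives.

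Phlda3 (chr1:135766119-135769136) resembled Cdkn1a in its values. It read 11.8, 3.05, 10.9 and 17.2 CPM in Il1r1KO at 2 weeks against 1.27, 4.65, 0.622 and 2.31 in VF, and 10.3, 8.63 and 4.36 against 1.14, 2.86 and 3.43 at 4 weeks (log2 fold change 1.96, SE 0.65, adjusted p = 0.265). Again the weeks differ in overlap, with 1 Il1r1KO library inside the VF range at 2 weeks and none at 4 weeks. Bax, at a far higher level, read 105, 115, 122 and 128 CPM in Il1r1KO at 2 weeks against 90.4, 101, 90.8 and 92.2 in VF, and 142, 133 and 113 against 92, 124 and 113 at 4 weeks. Its groups did not overlap at 2 weeks and did at 4 weeks, and the size of the difference was small (log2 fold change 0.28, SE 0.081, adjusted p = 0.181). Ei24, a membrane protein of the endoplasmic reticulum, shared this lack of overlap at 2 weeks (124, 115, 111 and 117 CPM in Il1r1KO, 109, 106, 106 and 108 in VF), against 1.92% of genes higher without overlap. Bbc3 did not separate the groups, with 20.2, 22.1, 16.2 and 17.4 CPM at 2 weeks and 11.2, 19.9 and 15.7 at 4 weeks in Il1r1KO, against 12.3, 13.4 and 13.9 in VF at 4 weeks (log2 fold change 0.11, SE 0.19). Ccng1 read 169, 139, 159.9 and 164 CPM at 2 weeks and 139, 165 and 136 at 4 weeks, with 147, 164 and 126 in VF at 4 weeks (log2 fold change 0.061, SE 0.11). Pmaip1 again rested on a few reads, at 0, 0, 4.5 and 0.128 and 3.17, 0 and 1.22 CPM.

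The regulators split. Ppm1d, the phosphatase Wip1 that switches p53 signalling off, read 49.2, 42.2, 45.7 and 60.5 CPM in Il1r1KO and 34.5, 33.1, 43.9 and 42 in VF at 2 weeks. At 4 weeks it read 45.3, 45.3 and 50.8 CPM in Il1r1KO and 37.5, 38.3 and 36.8 in VF, with no overlap (over both weeks log2 fold change 0.35, SE 0.14, adjusted p = 0.353). Mdm2 had the opposite sign, at 90.9, 93.4, 97.5 and 116 CPM in Il1r1KO and 112, 98.6, 97.4 and 119 in VF at 2 weeks. At 4 weeks Mdm2 read 84.5, 82.4 and 95.3 CPM in Il1r1KO and 112, 102 and 108 in VF, again without overlap (over both weeks log2 fold change -0.20, SE 0.0798, adjusted p = 0.347). Both code for feedback inhibitors that p53 itself raises. Neither was called by edgeR or DESeq2, and limma voom called Ppm1d. Trp53 read 286, 318, 245 and 263 CPM at 2 weeks and 375, 328 and 324 at 4 weeks in Il1r1KO, against 206, 329 and 299.9 in VF at 4 weeks (log2 fold change 0.18, SE 0.095, adjusted p = 0.477).

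**Figure D2:**
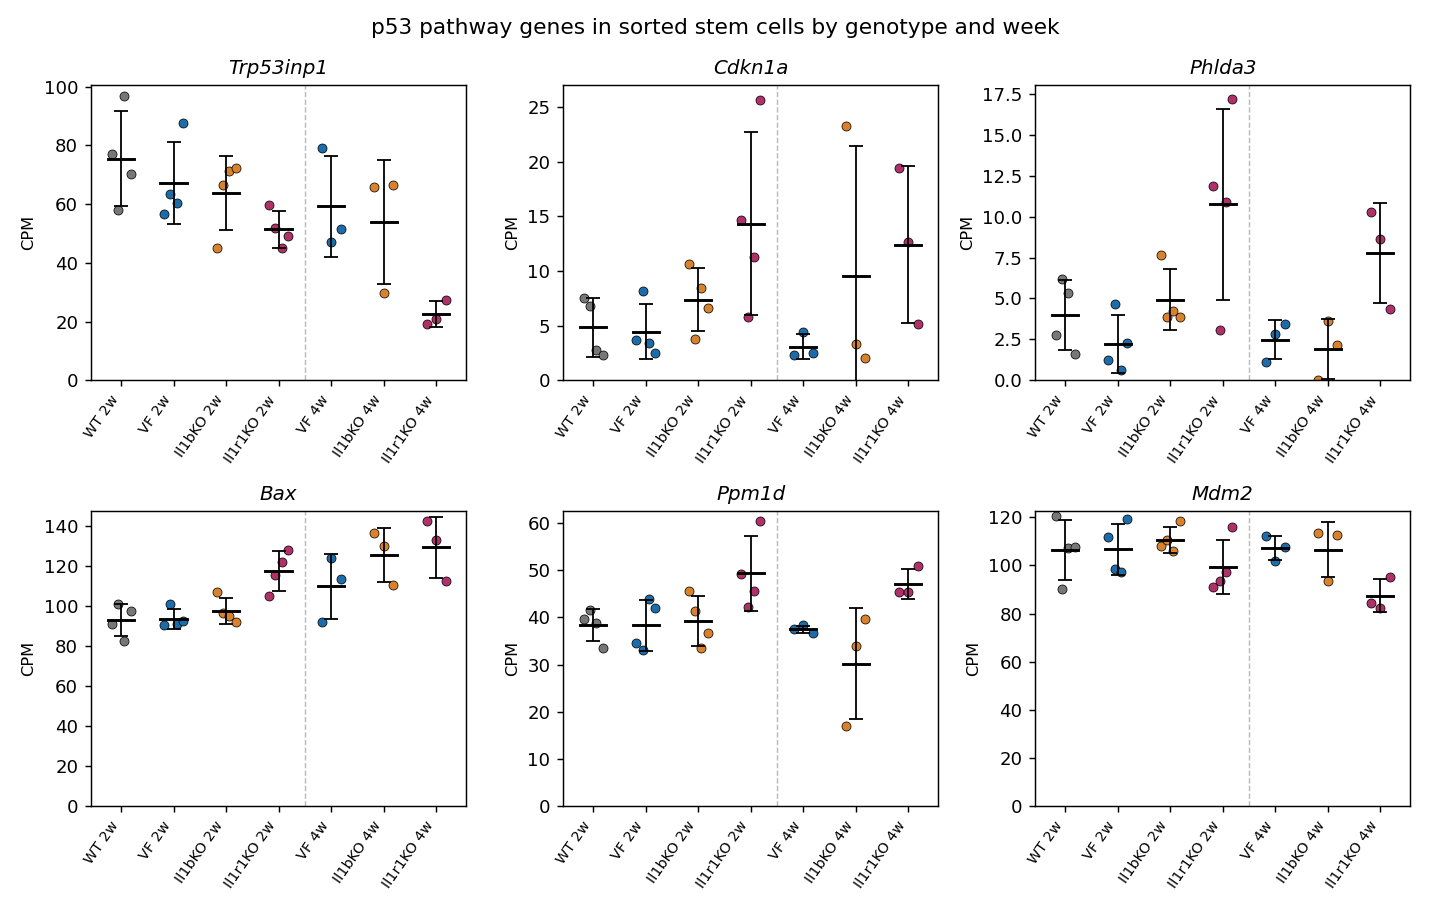
CPM of Trp53inp1, Cdkn1a, Phlda3, Bax, Ppm1d and Mdm2 in the 7 groups, each panel from 0, with 1 point per library, the group mean as a line and the SD as a bar (ended at 0 where the SD exceeds the mean). At 4 weeks the Il1r1KO points of Trp53inp1 and Mdm2 sit below all VF points, and those of Cdkn1a, Phlda3 and Ppm1d sit above them.

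Taken by week, 0 of 32 members were called by edgeR at 2 weeks (background 0.0514%), and 3 had an unadjusted p under 0.05 (Bax, Phlda3 and Cdkn1a) against 3.15% of genes, with 0 calls from DESeq2 and limma voom. At 4 weeks edgeR, DESeq2 and limma voom called 1 each, Trp53inp1 (edgeR background 0.147%), and 6 of 32 had an unadjusted p under 0.05 against 12.7% of genes. Over all genes DESeq2 called 231 and limma voom 406 at 4 weeks. Without overlap at 4 weeks were Cdkn1a, Phlda3, Ppm1d and Pidd1 among the higher (12.5% of members against 6.46% of genes) and Mdm2, Mdm4, Trp53inp1 and Ercc5 among the lower (12.5% against 6.65%). Ercc5 lies 3.92 Mb from Il1r1 on chromosome 1. The change of the receptor effect from 2 to 4 weeks was tested as its own term and called 0 of 32 (background 0%, edgeR). Of the 32, 2 had an unadjusted p under 0.05 for it against 5.32% of genes, Trp53inp1 (log2 fold change -1.01, SE 0.35, adjusted p = 0.835) and Ercc5 (log2 fold change -0.75, SE 0.30, adjusted p = 0.872), and DESeq2 and limma voom called 0.

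Marker sums of other cell states varied between these libraries, with overlap between the groups in each week. The summed level of 7 megakaryocyte genes was 772, 344, 983 and 1219 CPM in Il1r1KO and 320.4, 683, 345 and 318 in VF at 2 weeks, and 1126, 1010.4 and 808 against 438, 2334 and 549.6 at 4 weeks. Gp6 of this list had no read in VF or Il1r1KO at 4 weeks, while Pf4, Itga2b and Vwf were detected in every library. The summed level of 10 cycling genes was 3074, 2197 and 1696 CPM in Il1r1KO and 991, 1827 and 1359.7 in VF at 4 weeks, and 1124, 1009, 1325 and 1277 against 1274, 1103, 1047 and 1342 at 2 weeks. In Il1r1KO against VF edgeR called 0 genes of either list, within each week and over both. At 4 weeks all 10 cycling genes were higher, 9 of them at an unadjusted p under 0.05 (6.54% of all genes were higher at that p). The part of these markers in the differences of the p53 genes was not tested.

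Against WT at 2 weeks, no member passed the test in the cells without the receptor. edgeR, DESeq2 and limma voom called 0 of 32 (edgeR background 0.0587%), and 4 had an unadjusted p under 0.05 (Bax, Cdkn1a, Trp53inp1 and Mdm4), 12.5% against 5.98% of genes. Bax in Il1r1KO lay above all WT libraries, whose values are given above (log2 fold change 0.34, SE 0.11, adjusted p = 0.542). Bax, Ei24 and Ppm1d were the 3 members higher without overlap (9.38% against 2.43% of genes). Cdkn1a overlapped by 1 library (log2 fold change 1.56, SE 0.65, adjusted p = 0.759). These values share the Il1r1KO libraries with the comparison to VF and are not independent of it.

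Loss of Il1b in mutant cells called none of the 32 over both weeks. The members of lowest p were the p53 inhibitor Mdm4, lower, and Ddb2, Cdkn1a, Bbc3 and Sesn2, higher. Il1bKO_4w 5 held the highest Il1bKO value of Cdkn1a, Bbc3 and Ddb2. edgeR, DESeq2 and limma voom called 0 of 32 (edgeR background 0.139%). These 5 members had an unadjusted p under 0.05 (15.6% against 9.38% of genes). In all, 15 were higher and 17 lower (52.2% of genes were lower), with a median log2 fold change of -0.02 against -0.01 over all genes. Trp53inp1, called without the receptor, had 45.2, 66.6, 71.1 and 72.4 CPM at 2 weeks and 65.9, 29.7 and 66.5 at 4 weeks without Il1b, and overlapped VF in both.

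Mdm4 (chr1:132959484-133030561) read 119, 137, 145 and 121 CPM in Il1bKO at 2 weeks and 72.5, 93.8 and 73.9 at 4 weeks. VF had 114, 125 and 113 CPM at 4 weeks, so that the groups overlap at 2 weeks and not at 4 (log2 fold change -0.26, SE 0.096, adjusted p = 0.422). Within 4 weeks Mdm4 had the lowest p of the 32 (log2 fold change -0.55, SE 0.15, adjusted p = 0.116). It passed without Il1bKO_4w 6 (adjusted p = 0.0342) and in DESeq2 (0.0223), within a range of 0.0223 to 0.938 over the alternatives. Trp53 read 281, 269, 278 and 244 CPM at 2 weeks and 373, 316 and 301 at 4 weeks in Il1bKO (log2 fold change 0.13, SE 0.095). Mdm2 read 108, 111, 106 and 118 CPM and 114, 93.4 and 113 CPM (log2 fold change 0.021, SE 0.0797). Both overlap VF within each week.

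Cdkn1a in Il1bKO read 10.6, 3.82, 8.44 and 6.66 CPM at 2 weeks and 23.3, 3.32 and 2.01 at 4 weeks (log2 fold change 1.17, SE 0.49, adjusted p = 0.47). The highest value is that of Il1bKO_4w 5, without which the log2 fold change was 0.25 (adjusted p = 0.933, range over the alternatives 0.201 to 0.933). Bbc3 read 19.9, 24.3, 19.7 and 16.9 CPM at 2 weeks and 32.8, 20.4 and 15.6 at 4 weeks in Il1bKO (log2 fold change 0.43, SE 0.19, adjusted p = 0.487), and 0.26 on the log2 scale without the same library. Ddb2, which recognises ultraviolet damage in DNA, read 44.1, 52.1, 51.9 and 61 CPM at 2 weeks and 83.5, 43.7 and 47.9 at 4 weeks, where VF read 45.7, 42.2, 53.4 and 44.9 and 42.8, 25.8 and 46.6 (log2 fold change 0.39, SE 0.15, adjusted p = 0.422). Without Il1bKO_4w 5 its log2 fold change was 0.21. The same library had 0 reads of Pmaip1, Phlda3, Zmat3, Eda2r, Fas, Plk2 and Tigar.

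The remaining named members did not separate Il1bKO from VF over both weeks. Bax read 107, 96.4, 95 and 91.8 CPM at 2 weeks and 136, 129.7 and 110.4 at 4 weeks (log2 fold change 0.13, SE 0.081). Phlda3 read 7.68, 3.86, 4.24 and 3.9 and 0, 3.62 and 2.14 CPM (log2 fold change 0.39, SE 0.64), and Pmaip1 0, 0, 0 and 0.866 and 0, 1.25 and 0 CPM. Ccng1 read 176, 164, 174 and 172 CPM at 2 weeks, above all 4 VF libraries of that week, and 78.6, 121 and 162 at 4 weeks, where the groups overlap. Its log2 fold change was 0.23 (SE 0.14) at 2 weeks and -0.022 (SE 0.11) over both. Gadd45a, a stress gene of growth arrest, read 14.3, 12.8, 18 and 14.4 CPM in Il1bKO and 18.4, 18.7, 19.7 and 21.8 in VF at 2 weeks, without overlap (log2 fold change -0.40, SE 0.27, adjusted p = 0.9999). Lack of overlap at 2 weeks was seen in 1.56% of genes upward and 2.08% downward.

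Within 2 weeks edgeR, DESeq2 and limma voom called 0 of 32 (edgeR background 0.00734%), and 0 had an unadjusted p under 0.05 against 1.36% of genes. Within 4 weeks edgeR and limma voom called 0 and DESeq2 called Mdm4 (edgeR background 0.125%), with 7 of 32 at an unadjusted p under 0.05 (21.9% against 14.7%). Over all genes DESeq2 called 375 within 4 weeks. Higher without overlap at 4 weeks was Bbc3, against 5.72% of genes. Plk2, a kinase of the polo-like family, read 0, 4.13 and 0.186 CPM in Il1bKO and 3.3, 3.73 and 22.3 in VF at 4 weeks (log2 fold change -2.81, SE 0.98, adjusted p = 0.199). It passed without Il1bKO_4w 6 (adjusted p = 0.00777), which left 2 libraries with almost no reads, in a range of 0.00777 to 0.938 over the alternatives. Against WT at 2 weeks, 0 of 32 were called by the 3 tools (edgeR background 0.044%) and 1 had an unadjusted p under 0.05 against 3.1% of genes, Ercc5, with 24.7, 31.8, 23.6 and 26.2 CPM in Il1bKO (log2 fold change -0.41, SE 0.19, adjusted p = 0.9999). Mdm4 was next (log2 fold change -0.20, SE 0.13, adjusted p = 0.9999).

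Ligand and receptor loss were then set against each other directly, since both mutants lack part of the same pathway. No member passed the test by edgeR (0 of 32, background 0.176%) or limma voom, and DESeq2 called 1, Trp53inp1 (166 over all genes). An unadjusted p under 0.05 was reached by 6 of 32 (18.8% against 14.1% of genes). Trp53inp1 came closest, being lower without the receptor (log2 fold change -0.79, SE 0.18, adjusted p = 0.0674). It passed without Il1bKO_2w 1 (adjusted p = 0.0413) and without Il1bKO_4w 6 (0.00485), the latter being the Il1bKO library with the lowest Trp53inp1, in a range of 0.0048 to 0.268.

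Ppm1d read 45.6, 41.4, 33.4 and 36.7 CPM in Il1bKO at 2 weeks and 17, 33.9 and 39.6 at 4 weeks, and all 3 Il1r1KO libraries of 4 weeks are above the Il1bKO libraries of that week (log2 fold change 0.49, SE 0.14, adjusted p = 0.206). Sesn2, a sestrin that like Sesn1 restrains mTORC1, read 15.6, 24.9, 28.4 and 31.5 and 34.8, 15.2 and 35 CPM in Il1bKO at 2 and 4 weeks and 26.1, 15.6, 17.1 and 21.7 and 7.05, 17 and 16.1 CPM in Il1r1KO (log2 fold change -0.70, SE 0.22, adjusted p = 0.207). Without Il1bKO_4w 6, its lowest Il1bKO library, Sesn2 passed at adjusted p = 0.0476 (range over the alternatives 0.0476 to 0.534). Ddb2 read 46.3, 42.8, 42.7 and 48.4 and 32.2, 42.6 and 39.3 CPM in Il1r1KO (log2 fold change -0.42, SE 0.15, adjusted p = 0.236). For the genes named throughout, whose values stand above, the log2 fold changes of Il1r1KO against Il1bKO were 0.053 (SE 0.095) for Trp53, -0.22 (0.0798) for Mdm2, 0.67 (0.49) for Cdkn1a and 1.57 (0.65) for Phlda3. They were 0.083 (SE 0.11) for Ccng1, 0.16 (0.081) for Bax and -0.32 (0.19) for Bbc3. Leaving out 1 library at a time gave 0.43 to 1.59 for Cdkn1a and -0.43 to -0.15 for Bbc3. It gave 0.34 to 0.61 for Ppm1d and -0.50 to -0.24 for Ddb2.

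**Figure D3:**
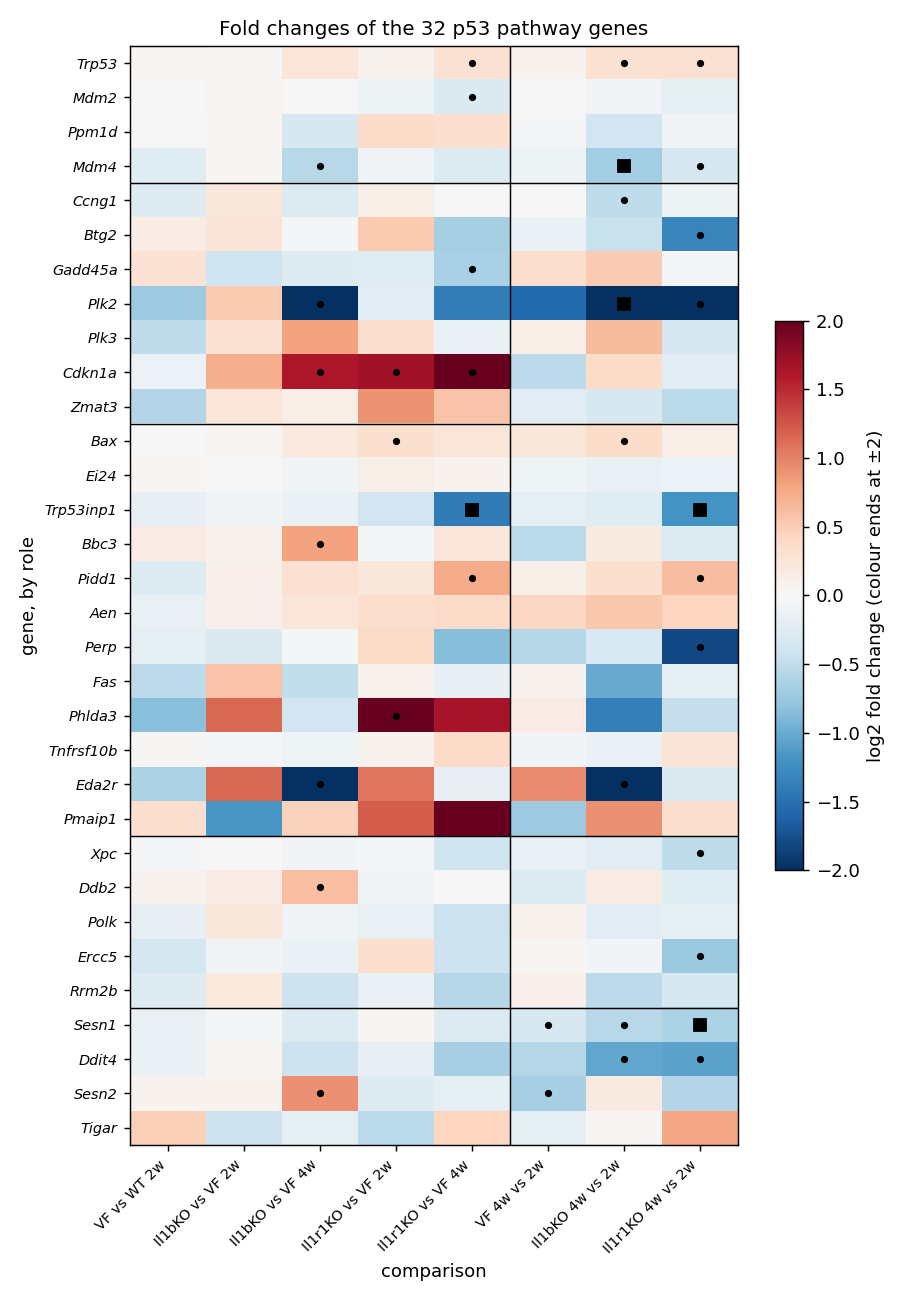
Log2 fold change of the 32 genes (rows, grouped by role) in 8 comparisons (columns), with the colour scale ending at 2 in either direction. A square marks an adjusted p under 0.05 (edgeR) and a dot an unadjusted p under 0.05. The squares stand on Trp53inp1 in the column of Il1r1KO against VF at 4 weeks. In the columns of 4 against 2 weeks they stand on Mdm4, Plk2, Trp53inp1 and Sesn1.

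Between 2 and 4 weeks of the same genotype more members were called, and those called by edgeR were all lower at 4 weeks. Per the labels' protocols the 2 weeks were processed as 2 batches, so week and batch cannot be told apart. In VF, edgeR, DESeq2 and limma voom called 0 of 32 (edgeR background 0.022%) and 2 had an unadjusted p under 0.05 against 8.48% of genes. In Il1bKO edgeR called 2, Mdm4 and Plk2 (background 0.748%), and in Il1r1KO 2, Trp53inp1 and Sesn1 (background 2.46%). DESeq2 called 4 and 6 and limma voom 1 and 3 in these comparisons. Over all genes DESeq2 called 607 and 928, and limma voom 103 and 518. In Il1r1KO 25 of 32 members were lower at 4 weeks (51.7% of genes were), with a median log2 fold change of -0.26 against -0.02 over all genes. In Il1bKO 20 were lower (52.3% of genes), with a median of -0.17. An unadjusted p under 0.05 was reached by 8 of 32 in Il1bKO against 19.1% of genes, and by 11 in Il1r1KO against 19.3%.

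Sesn1 (chr10:41809935-41908424) read 225, 229, 256 and 238 CPM in Il1r1KO at 2 weeks and 179.7, 135 and 145 at 4 weeks, without overlap. It fell (log2 fold change -0.63, SE 0.14, adjusted p = 0.0317). Its other genotypes had the same sign without an edgeR call, while DESeq2 called it in Il1bKO. VF read 197, 244, 244 and 237 and 226, 138 and 193 CPM (log2 fold change -0.31, SE 0.14, adjusted p = 0.561), and Il1bKO 194, 282, 203 and 220.4 and 154, 156 and 152 CPM (log2 fold change -0.55, SE 0.14, adjusted p = 0.0629). The Il1r1KO call for Sesn1 was lost at adjusted p = 0.0613 without Il1r1KO_2w 1, 0.0569 without Il1r1KO_2w 2, 0.0667 without Il1r1KO_2w 3, 0.0662 without Il1r1KO_2w 4, 0.0757 without Il1r1KO_4w 5 and 0.0697 without Il1r1KO_4w 6, and at 0.0709 when these 2 groups were fitted alone, in a range of 0.00216 to 0.0757. Sesn2 in VF read 19.1, 25.7, 26.1 and 24.9 CPM at 2 weeks and 12.1, 15.4 and 17.8 at 4 weeks, also without overlap (log2 fold change -0.67, SE 0.31, adjusted p = 0.576).

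Trp53inp1 in Il1r1KO fell from a mean of 51.4 ± 6.18 CPM (SD, n = 4) at 2 weeks to 22.5 ± 4.41 (n = 3) at 4 weeks (log2 fold change -1.19, SE 0.26, adjusted p = 0.0261). The call was lost at adjusted p = 0.0652 without Il1r1KO_2w 1, 0.0623 without Il1r1KO_2w 4 and 0.211 without Il1r1KO_4w 5, and at 0.0694 without VF_4w 6, Il1bKO_4w 5 and Il1r1KO_4w 5 together, in a range of 8.67e-04 to 0.211. Mdm4 in Il1bKO fell from 130.1 ± 12.6 CPM (SD, n = 4) to 80.1 ± 11.9 (n = 3), with every library of 4 weeks below every one of 2 weeks (log2 fold change -0.70, SE 0.14, adjusted p = 0.0221). Its call was lost at adjusted p = 0.0752 without Il1bKO_2w 2, 0.0615 without Il1bKO_2w 3, 0.0521 without Il1bKO_2w 4 and 0.0962 without Il1bKO_4w 5, and at 0.183 in a fit of these 2 groups alone, and at 0.05296 without VF_4w 6, Il1bKO_4w 5 and Il1r1KO_4w 5 together, in a range of 2.64e-04 to 0.183.

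Plk2 (chr13:110395046-110400844) had the largest drop. It read 28.1, 62.8, 26.6 and 46.8 CPM in Il1bKO at 2 weeks and 0, 4.13 and 0.186 at 4 weeks (log2 fold change -4.88, SE 1.04, adjusted p = 0.0322). The fold rests on libraries with few or no reads at 4 weeks. The call was lost at adjusted p = 0.0865 without Il1bKO_2w 2, 0.0854 without Il1bKO_2w 4 and 0.088 without Il1bKO_4w 5, at 0.241 in limma voom and at 0.271 in a fit of these 2 groups alone, in a range of 1.88e-04 to 0.271. In Il1r1KO Plk2 read 21.5, 8.88, 34 and 33.3 CPM at 2 weeks and 3.75, 5.17 and 2.41 at 4 weeks, and in VF 21.5, 60.5, 13.8 and 19 and 3.3, 3.73 and 22.3 CPM, where VF_4w 7 lies above 3 of the VF libraries of 2 weeks. WT at 2 weeks had 59.6, 45.6, 47.9 and 37.4 CPM, above all Il1r1KO libraries of 2 weeks, a lack of overlap that 2.36% of genes shared in that comparison.

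Lower at 4 weeks without overlap were 9 members in Il1bKO (28.1% against 8.2% of genes) and 7 in Il1r1KO (21.9% against 7.58%). In VF they were 2, Bbc3 and Sesn2 (6.25% against 6.99%). Ddit4, a stress-induced mTORC1 inhibitor, was among those of both knockouts, with 13.9, 15.8, 21.8 and 22.1 CPM at 2 weeks and 9.31, 6.64 and 10.9 at 4 weeks in Il1bKO and 16.4, 12.5, 11.8 and 22.9 and 4.46, 10.7 and 7.49 in Il1r1KO. Btg2, an anti-proliferative gene that also responds quickly to stimulation, read 27, 26, 71.4 and 58.9 CPM at 2 weeks and 12.9, 14.9 and 27.2 at 4 weeks in Il1r1KO, with overlap. Perp, a membrane protein of p53-dependent death, read 15.3, 9.66, 16.3 and 23 CPM at 2 weeks and 3.79, 5.64 and 4.36 at 4 weeks in Il1r1KO, without overlap. Higher without overlap were Trp53 in both knockouts, Bax in Il1bKO and Pidd1, a death-domain protein of the caspase-2 complex, in Il1r1KO, against 7.65% and 9.17% of genes. Pidd1 read 26.5, 28.1, 10.7 and 28.1 CPM at 2 weeks and 29.5, 33.4 and 44.9 at 4 weeks.

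**Figure D4:**
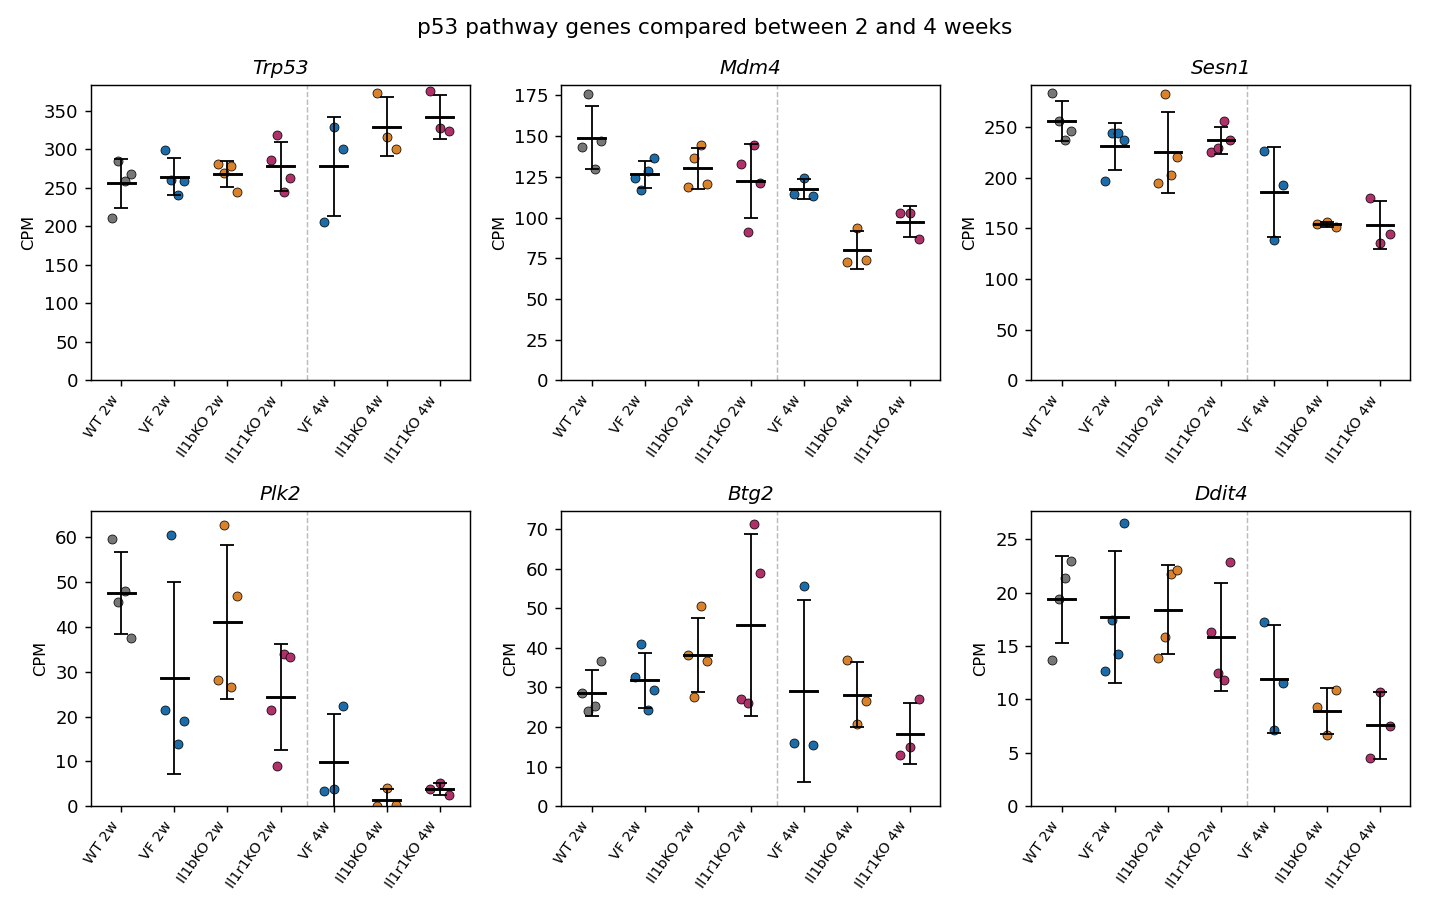
CPM of Trp53, Mdm4, Sesn1, Plk2, Btg2 and Ddit4 in the 7 groups, each panel from 0, with 1 point per library, the group mean as a line and the SD as a bar (ended at 0 where the SD exceeds the mean). The Sesn1 mean lies lower at 4 weeks in each mutant, Plk2 is near 0 in the Il1bKO libraries of 4 weeks, and Trp53 of both knockouts lies higher at 4 weeks.

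The summed level of immediate early and handling genes was lower at 4 weeks as well. The sum of 17 of them ran from 1930.4 to 3888 CPM over the libraries of 2 weeks and from 652 to 987 CPM over those of 4 weeks, with Fos, Jun and Egr1 detected in every library. Egr2 and Atf3 were not in the table used here. Of the 17, edgeR called lower 3 in VF, 11 in Il1bKO and 9 in Il1r1KO, and 0 higher. By sign, 15 were lower and 2 higher at 4 weeks in VF, Il1bKO and Il1r1KO alike. Hspa1a and Hspa1b of this list read 37.8 and 75.2 CPM in VF_4w 6 and 18.4 and 48.8 in Il1bKO_4w 7, but 0 in VF_4w 5. The cycling sum in Il1r1KO was higher at 4 weeks, as given above. The sum of 10 genes of the HSC gate ran from 2212 to 2835 CPM at 2 weeks and from 1907 to 2082 at 4 weeks in VF, from 2208 to 2822 and from 1885 to 2230 in Il1bKO, and from 2088 to 2215 and from 1403 to 1861 in Il1r1KO, with 1 of the 10 called lower in the last. It was lower at 4 weeks without overlap in VF and Il1r1KO and with overlap in Il1bKO. Nkg7, the 1 gene of the T and NK list in the table, ran from 18.4 to 34.5 and from 18.8 to 68.7 CPM in VF, from 21.8 to 49.8 and from 33.7 to 119 in Il1bKO, and from 19.7 to 31.5 and from 55.9 to 107 in Il1r1KO, where edgeR called it higher. Their part in the week differences of the p53 genes was not tested. Whether the effect of Il1b loss changed between weeks was tested as its own term and called 0 of 32 (background 0.0147%, edgeR), and DESeq2 and limma voom called 0 too. An unadjusted p under 0.05 was reached by 4 of 32 against 8.28% of genes. Mdm4 (log2 fold change -0.59, SE 0.19, adjusted p = 0.52) and Plk2 (log2 fold change -3.33, SE 1.23, adjusted p = 0.526) were lowest in p, and without Il1bKO_4w 6 Plk2 passed at adjusted p = 0.0277 (range 0.0277 to 0.761).

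The members not yet described are given by their ranges. Among arrest genes Zmat3, an RNA-binding protein, ran from 0 to 12.5 CPM over the 25 libraries. Among death genes Fas, the classical death receptor, ran from 0 to 9.76 CPM, Eda2r from 0 to 7.78, Tnfrsf10b from 0.377 to 7.26 and Aen, an exonuclease of apoptotic cells, from 19 to 58.4. Eda2r read 0, 1.66 and 1.36 CPM in Il1bKO and 2.46, 3.54 and 6.87 in VF at 4 weeks, without overlap, as did 7.3% of genes lower in that comparison. Among repair genes Rrm2b, a p53-induced subunit of ribonucleotide reductase, ran from 10.9 to 37.5 CPM, the damage sensor Xpc from 57.4 to 139 and the translesion polymerase Polk from 20.1 to 56.8. Tigar, which lowers glycolysis, ran from 0 to 8.1 CPM. None of these 9 was called by edgeR in any of the 15 comparisons.

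The rest of the pathway was read from 66 further genes, of which 62 were tested. They were upstream kinases and damage sensors, enzymes that modify p53, and additional targets. In the 4 main comparisons edgeR called 0 of 62, and an unadjusted p under 0.05 was reached by 0 (VF against WT), 7 (Il1bKO against VF), 10 (Il1r1KO against VF) and 10 (Il1r1KO against Il1bKO). The shares of all genes were 2.27%, 9.38%, 11.4% and 14.1%, and the counts are read against these and not as a result about the 62. DESeq2 called 1 in Il1bKO against VF, Thbs1, and 4 in Il1r1KO against VF, Ccng2, Ninj1, Ak1 and Thbs1, while limma voom called 6 in the latter. Over all genes DESeq2 called 100 and 148 in these comparisons, and limma voom 321 in the latter. Steap3, a ferrireductase, read 0.8003, 10.6, 3.97 and 7.25 CPM in WT and 14.6, 8.67, 7.97 and 10.4 in VF (log2 fold change 0.88, SE 0.47, adjusted p = 0.9998). Kmt5a, a histone and p53 methyltransferase, read 65.9, 68.3, 80.1 and 113 CPM in WT and 107, 89.5, 116 and 107 in VF (log2 fold change 0.36, SE 0.20, adjusted p = 0.9998). Neither separates the groups.

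Thbs1, the angiogenesis inhibitor thrombospondin 1, read 46.8, 24.5, 43.6 and 43.7 CPM in VF and 4.46, 22, 16.2 and 5.03 in Il1bKO at 2 weeks, and 117, 48.3 and 64.1 and 0.0502, 7.75 and 14.5 at 4 weeks. The Il1bKO libraries lie below all VF libraries of the same week, without passing the test in edgeR (log2 fold change -2.55, SE 0.62, adjusted p = 0.15). The cytokine gene Lif stayed at or under 1.90 CPM in every library and rests on few reads (log2 fold change -4.38, SE 1.55, adjusted p = 0.397). Ninj1, a protein of membrane rupture, read 185, 157, 194 and 225 CPM in VF and 162, 160.1, 169 and 138 in Il1r1KO at 2 weeks, and 253, 149.95 and 174 and 62.6, 129 and 121 at 4 weeks (log2 fold change -0.58, SE 0.14, adjusted p = 0.115, and 0.037 without VF_4w 6 in a range of 0.0143 to 0.409). Its groups overlap at 2 weeks and not at 4. Ccng2, a cyclin of quiescent cells related to Ccng1, read 109.9, 94.1, 104 and 121 CPM in VF and 87.4, 83.4, 65.1 and 70.3 in Il1r1KO at 2 weeks, and 126, 97.5 and 72.3 and 72.4, 67.4 and 66.4 at 4 weeks (log2 fold change -0.50, SE 0.13, adjusted p = 0.121, and 0.045 without VF_4w 7 in a range of 0.0242 to 0.432). Its Il1r1KO libraries lie below all VF libraries at 2 weeks, and at 4 weeks the highest of them and the lowest VF library are almost equal. Against Il1bKO, Ccng2 (log2 fold change -0.40, SE 0.13, adjusted p = 0.212) and Sesn3 (log2 fold change -0.53, SE 0.19, adjusted p = 0.247) were lowest in p.

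Of the 15 comparisons, edgeR called any of the 62 only in Il1r1KO between the weeks, where 4 rose and 0 fell (background 2.46%). DESeq2 called 6 there (928 over all genes) and limma voom the same 4 (518 over all genes). Within 4 weeks of Il1r1KO against VF, DESeq2 called 3 (Ninj1, Psrc1 and Thbs1) and limma voom 4 (H2ax, Kmt5a, Psrc1 and Gpx1), against 231 and 406 over all genes. DESeq2 called 1 within 4 weeks of Il1bKO against VF (Thbs1) and 2 between the weeks of Il1bKO (Trp53bp1 and Dgka), where limma voom called 1 (Rad9a). Over all genes these counts were 375, 607 and 103. Pcna, the sliding clamp of DNA replication, read 131, 143, 166 and 145 CPM at 2 weeks and 267, 217 and 196 at 4 weeks (log2 fold change 0.63, SE 0.15, adjusted p = 0.0336). Chek1, a checkpoint kinase of replication stress, read 39, 24, 34.2 and 30.7 CPM and 87.6, 60.5 and 60.7 CPM (log2 fold change 1.12, SE 0.26, adjusted p = 0.0336). Siva1, a death-domain adaptor, rose by 0.67 (SE 0.16) and Rad9a, part of a damage-sensing clamp, by 0.50 (SE 0.13) on the log2 scale, at adjusted p = 0.0336 and 0.0425. Pcna and Chek1 are raised in cycling cells, and the cycling sum of Il1r1KO was 1124, 1009, 1325 and 1277 CPM at 2 weeks and 3074, 2197 and 1696 at 4 weeks. Its part in these 4 calls was not tested. All 4 calls were lost without Il1r1KO_4w 5, in the fit of these 2 groups alone (adjusted p from 0.0539 to 0.118) and without VF_4w 6, Il1bKO_4w 5 and Il1r1KO_4w 5 together (0.0716 to 0.134). The adjusted p of Pcna was 0.0781 without Il1r1KO_2w 1, 0.0745 without Il1r1KO_2w 2, 0.0742 without Il1r1KO_2w 4 and 0.277 without Il1r1KO_4w 5, in a range of 0.00567 to 0.277 over the alternatives. For Chek1 it was 0.0573 without Il1r1KO_2w 1, 0.0838 without Il1r1KO_2w 2, 0.0601 without Il1r1KO_2w 3, 0.0742 without Il1r1KO_2w 4 and 0.266 without Il1r1KO_4w 5, in a range of 0.0047 to 0.266. For Siva1 it was 0.0573 without Il1r1KO_2w 1, 0.0838 without Il1r1KO_2w 2, 0.0667 without Il1r1KO_2w 3, 0.0727 without Il1r1KO_2w 4 and 0.301 without Il1r1KO_4w 5, in a range of 0.00655 to 0.301. Rad9a lost its call without each of 14 of the 25 libraries, in a range of 0.0101 to 0.318.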

How the data were processed

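The data are counts of reads per gene in 25 libraries, as deposited by the authors. Per the labels' protocols, RNA was extracted with PicoPure and unstranded libraries were made with SMART-Seq v4, so reads of overlapping antisense genes cannot be told apart. Per the submitters' processing notes, reads were handled with STAR 2.7.10a, FastQC 0.11.5, featureCounts and R 4.2.2 on mm10. Genes with fewer than 32 counts in their best library were not in the table. Gene symbols, positions and exon lengths came from GENCODE vM21, and start regions from RefSeq (GRCm38.p6). Counts were tested in R 4.3.3 by edgeR 4.0.16, with a robust quasi-likelihood fit of 7 groups to the 13630 genes kept by filterByExpr and TMM scaling, with p adjusted by Benjamini-Hochberg over all genes tested and called under 0.05. The 4 construct sequences were left out. The biological coefficient of variation was 0.41. CPM use TMM-scaled library sizes, and SE is the log2 fold change divided by the square root of F. The coefficient for both weeks is the mean of the 2 within-week differences.

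All 32 members were to be accounted for. Trp53, Mdm2, Cdkn1a, Ccng1, Bax, Bbc3, Pmaip1 and Phlda3 were given throughout, with the 4 members of lowest p in each of 4 main comparisons and the 2 of lowest p in each of the 11 others. Members not covered by this rule were named after their values were seen. The members and lists were chosen with earlier results of these data known. Of 10 marker lists, 5 are used here by their sums, and the sums of the neutrophil and monocyte, erythroid, mast and basophil, B lineage and lineage lists are given with the limits. The alternatives changed the scaling (RLE, upper quartile), the tool (DESeq2 1.42.0, voom of limma 3.58.1 with quality weights), the low-count filter (none, or CPM 5 in at least 3 libraries), the samples (only those compared, or without any single library) and the model (a block by replicate number). Fits without VF_4w 6, Il1bKO_4w 5 and Il1r1KO_4w 5, and without WT_2w 3 and WT_2w 4, were added after the data were seen. The test was checked on simulated data of the same design.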

Additional observations from a re-analysis of the deposited data

Results flagged for a closer look

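In 128 groups of 4 libraries (32 genes in the 4 groups of 2 weeks), 12 held 1 library far from the other 3 by Dixon's criterion, which chance alone meets in about 1 of 20 groups. In Il1bKO at 2 weeks, Il1bKO_2w 1 was high in 3 genes. Phlda3 was at 7.68 CPM there against 3.86 to 4.24 in the others, Zmat3 at 9.99 against 5.89 to 6.49, and Eda2r at 6.99 against 4.09 to 4.53. In the same group Ei24 was at 111 CPM in Il1bKO_2w 3 against 107 to 108, a gap that is small beside its level, and Pmaip1 at 0.866 CPM in Il1bKO_2w 4 against 0.

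In Il1r1KO at 2 weeks, Il1r1KO_2w 3 stood apart in 2 genes, with Pmaip1 at 4.5 CPM against 0 to 0.127 and Pidd1 at 10.7 against 26.5 to 28.1. Zmat3 was at 8.21 CPM in Il1r1KO_2w 2 against 12 to 12.5. In VF at 2 weeks, Plk2 was at 60.5 CPM in VF_2w 2 against 13.8 to 21.5, and Sesn1 at 197 CPM in VF_2w 1 against 237 to 244. In WT, WT_2w 2 was low in both Rrm2b (23.2 CPM against 28.5 to 28.9) and Xpc (83.3 against 120 to 126). Groups of 3 libraries were not examined in this way.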

How the results depend on the processing

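The number of members called was recomputed in 15 comparisons under 35 alternatives. It was the same or within 1.5 times in 456 of 505 values and moved in 49, and 7 comparisons kept their count throughout. The log2 fold change of a named gene kept its direction and its side of the threshold in 2431 of 2565 values. It lost its call in 78, gained one in 21 and turned sign in 35, of which 0 belonged to a called result.

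For Il1r1KO against VF over both weeks, where 1 member was called, limma voom called 5, DESeq2 2, the fit without VF_4w 6, Il1bKO_4w 5 and Il1r1KO_4w 5 called 2 (Cdkn1a and Trp53inp1), and leaving out 1 library gave 0 to 2. Within 4 weeks, where 1 was called, the fit of the compared groups alone called 0, the fit without those 3 libraries 3 (Trp53inp1, Sesn1 and Rrm2b), and leaving out 1 library gave 0 to 1. For Il1r1KO against Il1bKO (0 called) DESeq2 called 1 and leaving out 1 library gave 0 to 2. For Il1bKO against VF (0 called) leaving out 1 library gave 0 to 1 over both weeks, where Plk2 passed without Il1bKO_4w 6, and 0 to 2 within 4 weeks, where DESeq2 called 1. The change of the Il1b effect between weeks (0 called) gave 0 to 1. For 4 against 2 weeks in Il1bKO (2 called), the groups alone gave 0, limma voom 1, DESeq2 4, and leaving out 1 library 0 to 4, the most being without Il1bKO_4w 7 (Mdm4, Ccng1, Bax and Plk2). In Il1r1KO (2 called), the groups alone gave 1, the fit without the 3 libraries 1, DESeq2 6, and leaving out 1 library 0 to 4, the most being without VF_4w 6 (also Perp and Btg2) and without Il1bKO_4w 5 (also Plk2 and Ercc5). The causes were not tested.

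Reversed signs concerned values close to 0 or resting on few reads. In VF against WT, upper-quartile factors gave -0.0078 for Mdm2 and -0.00080 for Bax on the log2 scale, limma voom gave 0.0042 for Cdkn1a, and leaving out WT_2w 3 and WT_2w 4 gave -0.038 for Bax and -0.15 for Bbc3. In Il1bKO against VF over both weeks, limma voom gave -0.015 for Mdm2 and 0.12 for Ccng1, and leaving out VF_4w 6, Il1bKO_4w 5 and Il1r1KO_4w 5 gave -0.022 for Mdm2 and 0.14 for Ccng1. In Il1r1KO against VF limma voom gave -0.0048 for Pmaip1, and in Il1r1KO against Il1bKO the fit without the 3 libraries gave -0.013 for Ccng1. Leaving out 1 library turned the sign of some results, over ranges in VF against WT of -0.034 to 0.10 for Trp53, -0.068 to 0.0699 for Mdm2, -0.59 to 0.17 for Cdkn1a, -0.045 to 0.0501 for Bax, -0.00601 to 0.35 for Bbc3 and -1.19 to 1.16 for Pmaip1. In Il1bKO against VF the ranges were -0.002999 to 0.064 for Mdm2, -0.16 to 0.094 for Ccng1, -0.035 to 0.72 for Phlda3 and -3.63 to 0.87 for Pmaip1. In Il1r1KO they were -0.55 to 2.97 for Pmaip1 against VF, and -0.032 to 0.22 for Ccng1 and -0.20 to 5.38 for Pmaip1 against Il1bKO.

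The labels number the libraries alike in each genotype, without saying that a number marks a shared animal or day. Of 33 same-numbered pairs of libraries, 1 had deviations from the group means correlated above 0.1 (r from -0.22 to 0.14), and 8 libraries correlated best with their own number. With the replicate block, 0 members were called in Il1r1KO against VF over both weeks (Trp53inp1 -0.86, adjusted p = 0.0541) and 0 within 4 weeks (-1.36, adjusted p = 0.0875). The block changed no other count of members, and it was not run between weeks, which share no numbers.

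Low read numbers limit Pmaip1 most, which had 0 to 115 reads in a library. Phlda3, Zmat3, Eda2r, Fas, Tigar and Plk2 had 0 reads in Il1bKO_4w 5, the library of highest total and fewest genes detected, and Plk2 had 6 in Il1bKO_4w 7. Of the marker sums not used above, the neutrophil and monocyte genes ran from 417 to 886 CPM over the libraries, the mast and basophil genes from 415 to 596, the B lineage genes from 20.9 to 58.1, the lineage genes from 7.19 to 79.0 and the erythroid genes from 1707 to 3266 CPM. The libraries labelled WT read 1027, 519, 3.04 and 48.8 CPM of pEGFP and have 0 or 1 read of CreERT2.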
